A study of Mus musculus with 9 samples.

Results

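The transcripts described here are those of 29 genes of GABA neurons and inhibitory synapses in the medial prefrontal cortex (mPFC) of the mouse. A gene was taken as a member when its symbol in the deposited tables equalled a symbol on the list, and all 29 were found in every table, among 24532 genes in all. All of them also passed the filter on low expression, a mean of at least 30 reads per mouse, which left 14370 genes for testing. By role they are 3 enzymes of GABA synthesis and breakdown, 2 GABA transporters, 7 markers of interneuron classes, 2 interneuron transcription factors, 9 subunits of GABA-A receptors, 2 of GABA-B receptors, 2 proteins of the inhibitory postsynapse and 2 chloride transporters.

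GABA is the main inhibitory transmitter of the cortex. It is made from glutamate by the enzymes GAD1 and GAD2, packed into vesicles by SLC32A1, and released by interneurons whose classes are told apart by the calcium-binding proteins and peptides they express. On the receiving cell, GABA-A receptors are chloride channels built from subunits of several families, GABA-B receptors are G protein-coupled dimers, and the chloride transporters set whether an open channel inhibits the cell. Most receptor and postsynaptic members are also made by excitatory neurons, and Slc6a11 and Slc12a2 by glia, so the list covers the inhibitory synapse and not a single cell type.

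The study asked how chronic restraint stress and loss of Fkbp5, a co-chaperone that tunes the glucocorticoid receptor, act on the mPFC transcriptome. Libraries came from 9 C57BL/6 mice that the labels give as 11 weeks old, 3 in each group. CT mice were wild type and unstressed, WT_ST mice were wild type and stressed, and KO_ST mice carried a germline Fkbp5 knock-out in every cell and were stressed. By the study's methods, which give a younger age, all were males bred from heterozygous parents, the knock-out line had been backcrossed to C57BL/6J, and CT mice were also kept from food and water during the hours of restraint. No unstressed knock-out mice were sequenced, so in KO_ST against CT the effects of stress and of genotype cannot be told apart.

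Sequencing depth ran from 43778471 to 61150128 gene-assigned reads, and Pearson correlations between libraries over the tested genes lay between 0.987 and 0.994. Fkbp5 itself was measured at an FPKM (fragment counts scaled to transcript length and to the mapped reads of the library) of 6.46 to 7.61 in CT, 9.47 to 10.3 in WT_ST and 3.59 to 4.69 in KO_ST, so transcripts were still counted on the targeted gene in the knock-out. The summed FPKM of 13 markers of cortical glutamatergic neurons was 1694 to 1746 in CT, 1668 to 1777 in WT_ST and 1632 to 1774 in KO_ST, and Slc17a7, the vesicular glutamate transporter of cortical pyramidal cells, was at 581 to 637 FPKM in CT, 617 to 677 in WT_ST and 618 to 662 in KO_ST. The median log2 fold change of these markers was 0.07 in WT_ST against CT, 0.05 in KO_ST against CT and -0.04 in KO_ST against WT_ST. Bcl11b, named here after its values were seen, was called higher in both comparisons with CT, by 0.48 and 0.39 (limma adjusted p = 0.606 and 0.499), and the part of these markers in the members' differences was not tested. In bulk tissue, fewer cells of a type and less RNA per cell cannot be told apart.

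The promoter sequences of Gad1, Slc32a1 and Pvalb are shown because Gad1 with Pvalb and Gad1 with Slc32a1 had the highest correlations over the 9 mice among the 8 pairs of members compared. Each run was taken upstream of a RefSeq transcript start (build GRCm38.p6) and is written along the gene's strand. Gad1 and Slc32a1 are on the plus strand and Pvalb is on the minus strand. The runs of Slc32a1 and Pvalb, 250 bases each, end at the base before the transcript start. That of Gad1, 163 bases, ends further upstream, before an annotated exon of a longer transcript. The runs of Slc32a1 and Gad1 lie inside the annotated spans of these genes, which begin at 158607260 and 70561303 on chromosome 2. The run of Pvalb lies outside the span of its gene. The run of Slc32a1 overlaps an exon of the non-coding gene Gm14204 on the other strand. Capitals mark the only match, within the printed runs, to any of the 5 short motifs searched, TTTATA, the reverse complement of a TATA box, 141 bases before the RefSeq start of Gad1.
Gad1, chr2:70561879-70562041: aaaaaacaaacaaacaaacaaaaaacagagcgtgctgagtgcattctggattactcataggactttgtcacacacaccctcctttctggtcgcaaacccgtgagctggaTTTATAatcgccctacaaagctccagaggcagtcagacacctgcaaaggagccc
Slc32a1, chr2:158610508-158610757: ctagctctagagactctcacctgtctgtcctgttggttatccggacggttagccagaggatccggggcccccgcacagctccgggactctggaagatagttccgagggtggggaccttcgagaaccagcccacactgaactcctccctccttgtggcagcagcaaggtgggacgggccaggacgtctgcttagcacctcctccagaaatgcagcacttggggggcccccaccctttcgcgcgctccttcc
Pvalb, chr15:78206401-78206650: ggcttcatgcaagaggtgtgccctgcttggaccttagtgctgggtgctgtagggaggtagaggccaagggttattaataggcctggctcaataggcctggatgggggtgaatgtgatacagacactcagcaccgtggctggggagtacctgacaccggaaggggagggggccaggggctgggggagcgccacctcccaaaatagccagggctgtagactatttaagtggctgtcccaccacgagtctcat

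The motifs were searched on both strands in the 250 bases upstream of 33 RefSeq starts of 25 members, and their shares are given beside those in 32851 promoters of the same length. No window could be matched to Abat, Calb2, Gabrd or Slc12a2. AGAACA (or TGTTCT), the half-site of the glucocorticoid response element, was present for 3 members, Gabrb2, Lhx6 and Nlgn2, in 12.1% of member windows and 16.1% of all promoters. TGACG (or CGTCA), the half-site of the cAMP response element, was present for Cck, Gad2, Sst and Vip, in 12.1% of member windows and 17.8% of all. GGGCGG (or CCGCCC), the GC box, was present for 14 members, in 45.5% of member windows and 32.7% of all promoters. The homeodomain core TAATTA was found for Gabrg1 and TATAAA (or TTTATA) for Gabra3, Gabrb2, Gad1 and Vip, in 3.03% and 15.2% of member windows and 4.84% and 12.4% of all promoters. Member windows had a median GC content of 61.2%, and all promoters one of 52.4%. These matches describe letters in a window and no binding was measured.

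Levels of the members spanned a mean FPKM of 2.1 for Gabrg3 to 490 for Cck, with a median of 27.6. FPKM is scaled for transcript length, so levels of different genes can be set side by side. Peptide genes, a receptor subunit and the neuronal chloride exporter held the top of the order, with Cck followed by Sst at 267, Gabbr1 at 177, Slc12a5 at 126 and Npy at 112. Neither Cck nor Sst overlapped with the next gene in any mouse, whereas Slc32a1, Vip, Gad2 and Gabra4 had means between 27.1 and 27.6 and overlapping ranges. At the bottom, Gabrg1 at 3.94 and Gabrg3 did not overlap, while Slc12a2, Reln, Lhx6 and Dlx1, at 7.80, 7.05, 6.61 and 6.17, overlapped with their neighbours. The spread between mice of a group, as a coefficient of variation, had a median of 7.41% over the members, beside 6.59% over the 11206 tested genes expressed at least as high as the lowest member. It was under 10% for 22 members. Gabrg3 was the most variable, at 32.3% with a mean of 178 reads, where counting error alone is 7.49%. Calb2 followed at 17.2%.

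**Figure D1:**
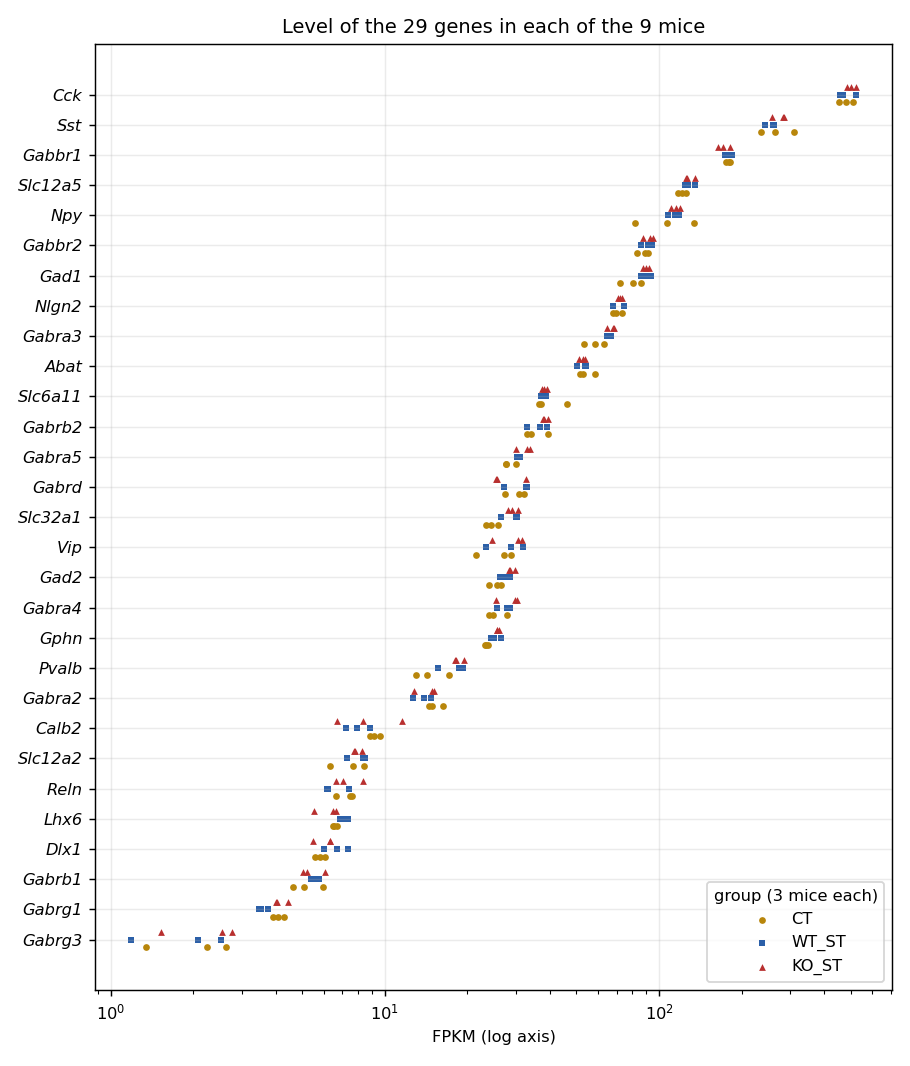
FPKM (log axis) of each of the 29 genes in each of the 9 mice, ordered by mean level, with circles for CT, squares for WT_ST and triangles for KO_ST. Levels run from a mean of 2.1 for Gabrg3 to 490 for Cck, and for most genes the 3 groups lie on top of each other.

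Differences between groups were tested with limma on quantile-normalized log2(FPKM + 1), each on the 6 mice of the groups compared, and fold changes are on that scale, which understates the change of low genes. A gene was called at an unadjusted p under 0.05 with a fold change above 1.2, the study's criterion, and p-values adjusted by the Benjamini-Hochberg method over all tested genes are given beside it. The 3 comparisons share mice, so their values are not independent of each other.

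Chronic stress in wild-type mice was accompanied by small differences in the GABA genes, most of them upward. In WT_ST against CT, 20 of the 29 members were above 0 and the median log2 fold change was 0.09. For all tested genes the median was 0.00338, with 51.3% above 0. By limma's criterion 0 members were called, while 355 genes were called in all, 2.47% of those tested. edgeR likewise called 0 members, and DESeq2 called Pvalb. An unadjusted p under 0.05 was reached by 4 members that were higher in WT_ST (3.92% of all genes), namely Gad1, Slc32a1, Dlx1 and Gabra3, and by 0 members that were lower (3.94%). The groups did not overlap for 5 higher members (6.03% of all genes), Slc32a1, Lhx6, Gabra3, Gabra5 and Gphn, and for 1 lower member (7.95%), Gabrg1. After adjustment 0 members passed 0.05, as against 0.0348% of all genes, and the smallest adjusted p of a member was 0.630 (limma). The 95% interval lay within a 1.2-fold change in either direction for 15 members and for 57.3% of all genes. These counts depended on single mice. CT replicate 2 was the lowest of the 9 mice for 12 of 29 members, and for 17.2% of tested genes, and without it the median of the members was 0.02 and 1 member was higher at an unadjusted p under 0.05. Without CT replicate 3 that number was also 1, without CT replicate 1 it was 10, and without WT_ST replicates 1, 2 or 3 it was 2, 3 and 2. With all 9 mice in 1 fit it was 8. At that level 1 member was lower with edgeR, without CT replicate 2 and without WT_ST replicate 3. In the same comparison 7 of 8 microglial, 2 of 8 astrocyte and 2 of 8 endothelial and mural markers were called lower. Of 13 tested striatal markers 3 were called higher. Of 8 oligodendrocyte markers 0 were called in either direction, with a list median of 0.22. The part of all these markers in the members' differences was not tested.

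Stressed knock-out mice differed from CT in a similar direction, with 22 members above 0 and a median of 0.08 (all genes 0.00243, with 51% above 0). One member was called, Pvalb, beside 512 genes in all (3.56%). An unadjusted p under 0.05 was reached by 7 higher members (4.47% of all genes), Gad1, Gad2, Slc32a1, Pvalb, Gabra3, Gabra5 and Gphn, and by 0 lower members (4.98%). KO_ST lay wholly above CT for 6 members (5.9% of all genes), the same set without Gabra5, and wholly below it for 0 (10.6%). Adjusted p-values from limma were at or above 0.443 for all members, so 0 passed 0.05, beside 0.0626% of all genes. The 95% interval lay within a 1.2-fold change for 13 members and for 52.7% of all genes. At an adjusted p under 0.05, edgeR also gave 0 members and DESeq2 gave 1, Slc32a1 (adjusted p = 0.0367). By the criterion of unadjusted p and fold change, both edgeR and DESeq2 called 2 members, Pvalb and Slc32a1. In fits that left out 1 mouse, 0 members were called without CT replicate 2 and 3 without CT replicate 1, namely Pvalb, Slc32a1 and Gabra3. The number of higher members at an unadjusted p under 0.05 went down to 4 without KO_ST replicate 1 and up to 9 without CT replicate 1, where the median was 0.12. Here too 7 of 8 microglial markers fell, and 2 of 13 tested striatal markers rose, and their part in these differences was not tested.

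Between the stressed groups, which differ in genotype, the members were closest. The median KO_ST minus WT_ST difference was 0.03, with 23 members above 0, beside a median of -0.00147 and 49.3% above 0 for all genes. By limma 0 members were called, as against 287 genes in all (2%), and both edgeR and DESeq2 called 0. At an unadjusted p under 0.05, 1 member was higher, Gabrg1 (2.68% of all genes), and 0 were lower (3.15%). No member was higher at that level without WT_ST replicate 1, WT_ST replicate 2 or KO_ST replicate 1, or with a block for replicate number. Without KO_ST replicate 3, 3 were higher and 2 lower. Gabrg1 was the only member whose values in KO_ST all lay above those in WT_ST (4.29%), and Lhx6 the only one for which they all lay below (6.76%). No adjusted p passed 0.05 (0.153% of all genes), the smallest being 0.830 (limma). For 21 members the 95% interval lay within a 1.2-fold change in either direction, and for 63.3% of all genes. In this comparison 1 of 8 microglial markers (list median -0.37) and 1 of 8 endothelial and mural markers were called lower. Of 13 tested striatal markers 1 was called higher and 2 lower. The part of these markers in the members' values was not tested.

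**Figure D2:**
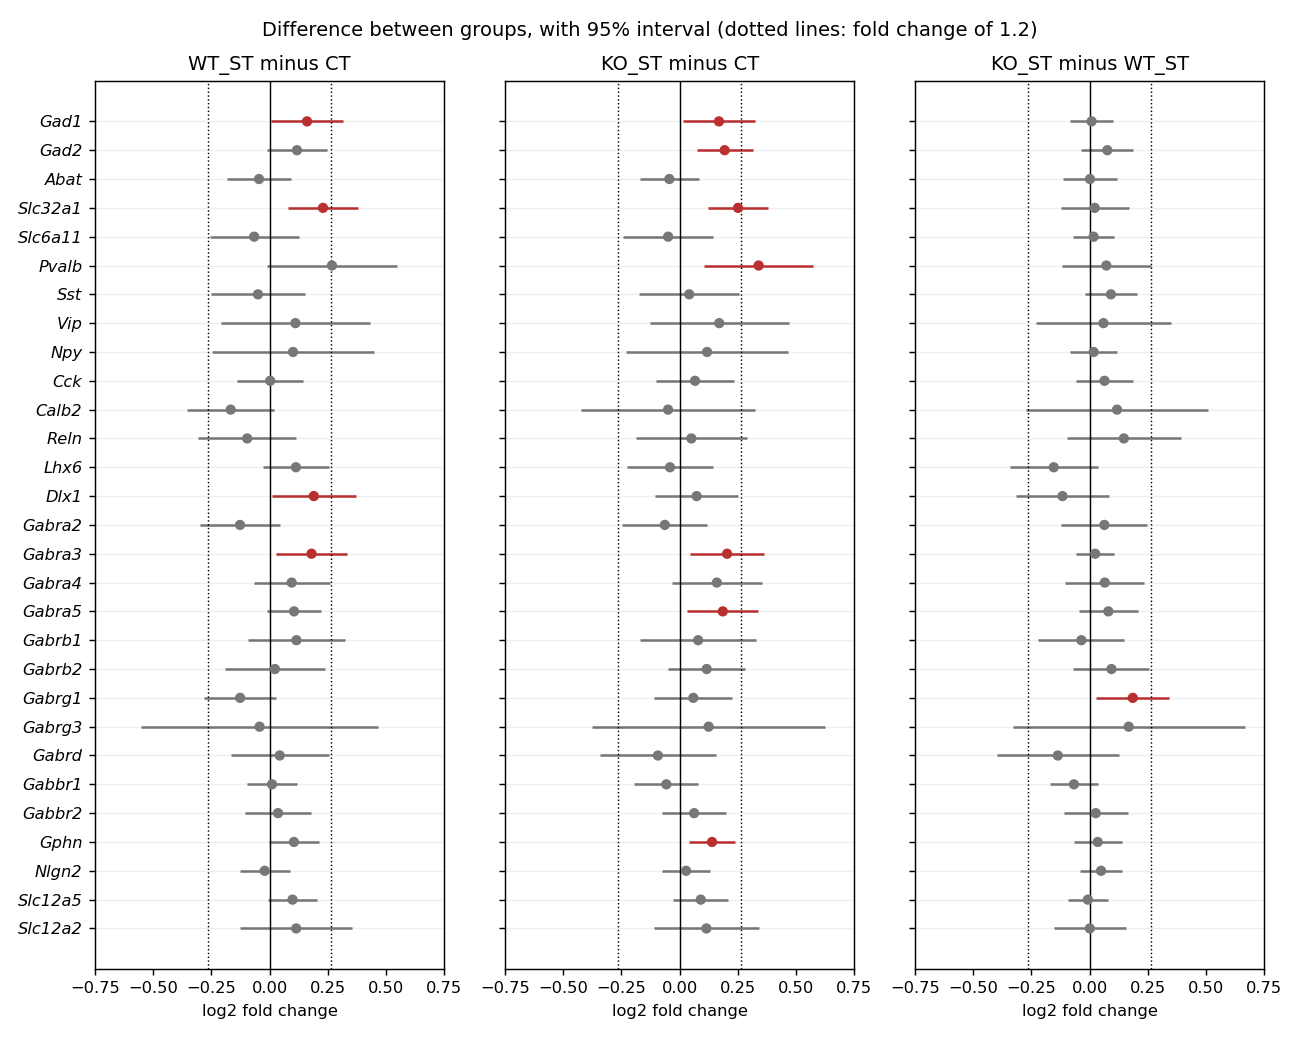
log2 fold change of each member with its 95% interval (limma, quantile-normalized log2(FPKM + 1), 3 mice against 3) for the 3 comparisons, with dotted lines at a fold change of 1.2 and red for an unadjusted p under 0.05. In the comparisons with CT, 20 and 22 of the 29 points lie to the right of 0, and only Pvalb in KO_ST against CT is both red and beyond the dotted line.

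Among the enzymes, Gad1 and Gad2 make GABA and Abat breaks it down. Gad1 (chr2:70561303-70602014) was measured at 86.3, 72.2 and 80.5 FPKM in CT, 93.9, 90.0 and 85.9 in WT_ST, and 87.5, 89.8 and 92.2 in KO_ST. Its lowest value was in CT replicate 2, all KO_ST mice lay above all CT mice, and WT_ST replicate 3 lay just within the CT range. The log2 fold change against CT was 0.16 in WT_ST (standard error, SE, 0.065, limma adjusted p = 0.635) and 0.17 in KO_ST (SE 0.066, limma adjusted p = 0.501). Without CT replicate 2 the Gad1 difference in WT_ST was 0.10, and in KO_ST the lowest over the 15 alternative fits was 0.11. Gad2 (chr2:22621015-22693877), the isoform enriched at synaptic terminals, was at 26.6, 24.0 and 25.5 in CT, 27.7, 26.3 and 28.7 in WT_ST, and 29.9, 28.5 and 28.3 in KO_ST. The KO_ST mice again lay above CT without overlap, by 0.19 on the log2 scale (SE 0.051, limma adjusted p = 0.470). WT_ST was 0.12 above CT, with a 95% interval from -0.01 to 0.24. The ratio of Gad1 to Gad2 stayed between 2.93 and 3.42 in the 9 mice. Abat ranged from 50.1 to 58.2 and differed by -0.05 and -0.04 between the stressed groups and CT, with both intervals inside a 1.2-fold change.

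Slc32a1, the vesicular GABA transporter, had the smallest p of any member in both comparisons with CT. Its level (chr2:158607260-158615747) was 25.9, 23.4 and 24.4 FPKM in CT, 30.5, 30.2 and 26.6 in WT_ST, and 28.2, 30.5 and 28.98 in KO_ST. All 6 stressed mice lay above all 3 CT mice. The log2 fold change was 0.23 in WT_ST (SE 0.065, limma unadjusted p = 0.00915 and adjusted p = 0.630) and 0.25 in KO_ST (SE 0.055, limma unadjusted p = 0.00259 and adjusted p = 0.443), both under the 1.2-fold criterion. Between KO_ST and WT_ST it was 0.02, with a 95% interval from -0.12 to 0.17. Gm14204, the antisense gene that overlaps it, averaged 338 reads per mouse, against 3917 on Slc32a1, and the strand setting of the counting is not given in the sources used here. Slc6a11, a GABA transporter of astrocytes, was at 36.6 to 46.2 FPKM in CT, 37.1 to 38.6 in WT_ST and 37.5 to 38.9 in KO_ST, and CT replicate 3 alone stood above the other 8 mice.

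Of the interneuron class markers, the transcript of parvalbumin, a marker of fast-spiking basket and chandelier cells, gave the one call. Pvalb (chr15:78191112-78206400), the gene of that calcium-binding protein, was measured at 17.2, 13.0 and 14.2 FPKM in CT, 18.7, 19.3 and 15.6 in WT_ST, and 18.2, 18.1 and 19.5 in KO_ST. CT replicates 2 and 3 were the lowest of all mice, every KO_ST mouse lay above every CT mouse, and WT_ST replicate 3 lay within the CT range. Pvalb rose in KO_ST against CT by 0.34 on the log2 scale, 1.27-fold (SE 0.099, limma unadjusted p = 0.0107 and adjusted p = 0.490). Without CT replicate 2 the log2 fold change was 0.26, under the fold criterion. In WT_ST it was 0.27 above CT (SE 0.118, limma adjusted p = 0.643), with a 95% interval from -0.01 to 0.55, and KO_ST and WT_ST differed by 0.07, with an interval from -0.12 to 0.26. The call in KO_ST and its absence in WT_ST were thus not shown to differ. Pvalb was also called in WT_ST against CT with all 9 mice in 1 fit (limma, unadjusted p = 0.0315), with DESeq2 (0.0496) and with the replicate block (limma, 0.0452).

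The peptide genes of the other large classes moved less than their spread. Sst, of the dendrite-targeting Martinotti cells, was at 264.5, 236 and 309.9 FPKM in CT, 260.1, 263 and 244 in WT_ST, and 284, 285 and 259 in KO_ST. The CT mice spanned the values of both stressed groups, and the differences from CT were -0.05 and 0.04, with intervals that reach from -0.25 to 0.15 and from -0.17 to 0.26. Npy spread even more widely in CT, from 82.0 to 134 FPKM, than in WT_ST (108 to 118) or KO_ST (111 to 119). Vip, of interneurons that inhibit other interneurons, ranged from 21.4 to 32.0, and Cck, which excitatory neurons also make, from 454 to 524. Calb2 (calretinin) was 0.17 lower in WT_ST than in CT (95% interval from -0.35 to 0.02), and in KO_ST it spread from 6.70 to 11.5 FPKM, wider than both other groups together. Reln, the secreted protein of superficial interneurons, lay between 6.13 and 8.34 FPKM, and each of its 95% intervals included 0. The ratio of Sst to Pvalb averaged 18.5 ± 3.22 in CT, 14.4 ± 1.04 in WT_ST and 14.9 ± 1.38 in KO_ST (SD, n = 3).

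The transcription factors Lhx6 and Dlx1, which mark interneurons of ganglionic eminence origin, had their highest group means in WT_ST. Dlx1 (chr2:71528113-71533981) was at 6.06, 5.58 and 5.80 FPKM in CT, 6.01, 6.70 and 7.34 in WT_ST, and 5.45, 6.29 and 6.31 in KO_ST. WT_ST replicates 2 and 3 stood above the remaining 7 mice, and replicate 1 lay within the CT range. The WT_ST minus CT difference was 0.19 (SE 0.076, limma adjusted p = 0.635). Lhx6 (chr2:36081950-36105992), the factor that specifies the parvalbumin and somatostatin lineages, was at 6.54, 6.44 and 6.68 in CT, 7.33, 7.02 and 6.84 in WT_ST, and 5.501, 6.64 and 6.45 in KO_ST. WT_ST mice were above all others, by 0.11 against CT (95% interval from -0.03 to 0.25), and KO_ST was 0.15 below WT_ST (interval from -0.34 to 0.03). KO_ST replicate 1 was the lowest mouse, and KO_ST minus WT_ST ran from -0.20 to -0.08 over the 15 alternative fits. Neither difference of Lhx6 reached an unadjusted p of 0.05. The antisense transcript Dlx1as overlaps Dlx1 and averaged 642 reads, against 868 on Dlx1.

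**Figure D3:**
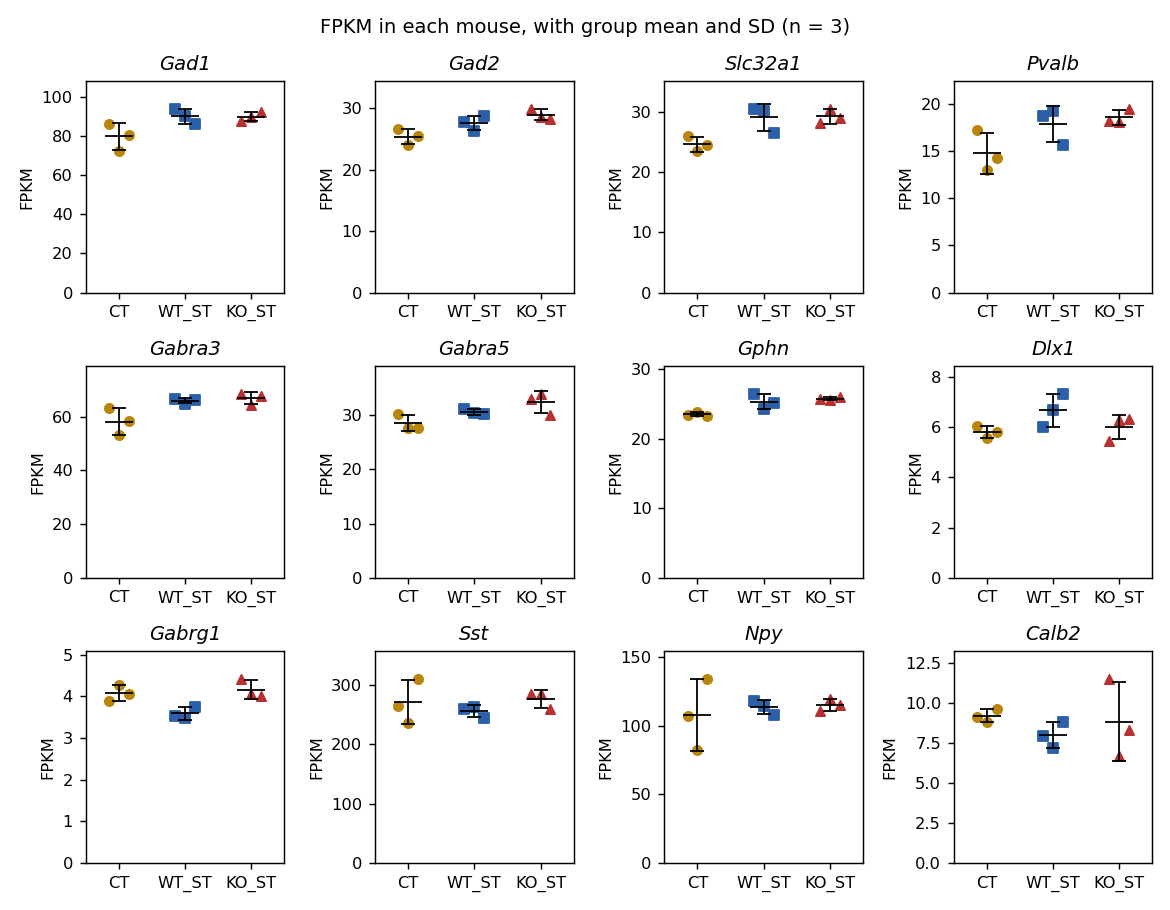
FPKM of 12 members in each mouse (points, replicates 1 to 3 from left to right within a group), with the group mean and SD (n = 3), all axes starting at 0. For Slc32a1 and Gabra3 all 6 stressed mice lie above the 3 CT mice, for Gabrg1 the WT_ST mice lie below both other groups, and for Sst and Npy the CT mice span the stressed groups.

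The 9 GABA-A subunits together summed to 204 ± 13.8 FPKM in CT, 216 ± 1.18 in WT_ST and 220 ± 6.24 in KO_ST (SD, n = 3), and CT replicate 1, at 219.9, lay within the range of the stressed mice. Of the alpha subunits, which set the receptor's place on the cell and its drug response, Gabra3 (chrX:72432676-72656919) was the most abundant of the 4 on the list. It was measured at 63.1, 53.1 and 58.2 FPKM in CT, 66.7, 64.8 and 66.2 in WT_ST, and 68.5, 64.4 and 67.7 in KO_ST. All stressed mice exceeded all CT mice. The log2 fold change was 0.18 in WT_ST (SE 0.065, limma adjusted p = 0.635) and 0.20 in KO_ST (SE 0.067, limma adjusted p = 0.499). Gabra2, at 12.6 to 16.2 FPKM, was lower in WT_ST than in CT by 0.13 (95% interval from -0.30 to 0.04). As a result of both, the ratio of Gabra3 to Gabra2 was 3.27 to 4.26 in CT and 4.48 to 5.28 in the stressed mice, without overlap. This ratio was described and not tested.

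Gabra5, the subunit of extrasynaptic receptors that carry tonic inhibition, was at 30.2, 27.7 and 27.7 FPKM in CT, 31.2, 30.4 and 30.3 in WT_ST, and 33.1, 33.9 and 30.1 in KO_ST. WT_ST lay just above CT without overlap, and KO_ST was 0.19 above CT (SE 0.064, limma adjusted p = 0.499). Gabra4, another extrasynaptic subunit, ranged from 23.9 to 30.3, and Gabrd, the delta subunit that joins it at extrasynaptic sites, from 25.5 to 33.0. KO_ST replicates 1 and 2 had the lowest Gabrd levels, at 25.6 and 25.5, and replicate 3, at 32.7, was among the highest, so the group difference of -0.09 from CT had an interval from -0.34 to 0.16. Cfap74, a gene that overlaps Gabrd, averaged 584 reads, against 2843 on Gabrd. Gabra4 and Gabrb1 overlap by 388 bases, and Gabra5 overlaps a neighbouring subunit gene by 499 bases and the non-coding Gm9962, so the division of reads at these places is uncertain.

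The gamma subunit Gabrg1 (chr5:70751047-70842617) was the only member with an unadjusted p under 0.05 between the stressed groups. Its levels were 3.90, 4.27 and 4.06 FPKM in CT, 3.54, 3.48 and 3.76 in WT_ST, and 4.42, 4.05 and 4.003 in KO_ST. WT_ST was the lowest group, below all CT and all KO_ST mice. KO_ST exceeded WT_ST by 0.19 (SE 0.066, limma unadjusted p = 0.0260 and adjusted p = 0.830), and WT_ST was 0.13 below CT (95% interval from -0.28 to 0.03). Over the 15 alternatives the unadjusted p of Gabrg1 between the stressed groups ran from 0.0130 to 0.0862 and was under 0.05 in 11, and its adjusted p ran from 0.599 to 0.997. Of the remaining subunits, Gabrg3 had the widest intervals, for example from -0.55 to 0.47 in WT_ST against CT. Gabrb1 (4.63 to 6.04 FPKM) and Gabrb2 (33.0 to 39.5) gave differences from -0.04 to 0.12, none of them past an unadjusted p of 0.05. The genes of 4 subunits lie in 1 cluster of 1399 kb on chromosome 5, in the order Gabrg1, Gabra2, Gabra4, Gabrb1. In WT_ST against CT the first 2 of the cluster were both 0.13 lower and the last 2 were 0.09 and 0.12 higher, and all 4 intervals included 0. Gabrg3 and Gabra5 lie together on chromosome 7.

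GABA-B receptors need both subunits, Gabbr1 and Gabbr2, to reach the membrane and signal. Gabbr1 (chr17:37045966-37074305) was measured at 180.3, 181 and 175.7 FPKM in CT, 185, 178 and 174 in WT_ST, and 171, 164 and 181 in KO_ST. KO_ST replicates 1 and 2 were the lowest of the 9 mice, and replicate 3 lay among the CT values. Gabbr1 in KO_ST differed by -0.06 from CT (95% interval from -0.20 to 0.08) and by -0.07 from WT_ST (interval from -0.17 to 0.04). It lies on the chromosome of the targeted gene, 8.56 Mb from Fkbp5. Gabbr2 ranged from 83.4 to 95.1 FPKM, and its differences were 0.04, 0.06 and 0.03 in the 3 comparisons, with every interval inside a 1.2-fold change. The Gabbr1 to Gabbr2 ratio averaged 2.04 ± 0.064 in CT, 1.98 ± 0.14 in WT_ST and 1.88 ± 0.10 in KO_ST (SD, n = 3).

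At the inhibitory postsynapse, gephyrin (Gphn, chr12:78217325-78684772) anchors the receptors and neuroligin 2 (Nlgn2) holds the contact. Gphn was at 23.4, 23.8 and 23.2 FPKM in CT, 26.4, 24.3 and 25.1 in WT_ST, and 25.6, 25.6 and 26.02 in KO_ST. Every stressed mouse lay above every CT mouse, with the smallest spread of any member, a within-group coefficient of variation of 2.64%. The log2 fold change was 0.10 in WT_ST (SE 0.046, limma adjusted p = 0.643) and 0.14 in KO_ST (SE 0.041, limma unadjusted p = 0.0116 and adjusted p = 0.496), with an interval in KO_ST from 0.04 to 0.24 that stays inside a 1.2-fold change. Nlgn2 ranged from 67.9 to 74.3 FPKM and differed by 0.05 or less.

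The chloride exporter Slc12a5 (KCC2) and importer Slc12a2 (NKCC1) together set the chloride gradient that GABA-A receptors use. Slc12a2 was measured at 7.68, 6.29 and 8.41 FPKM in CT, 7.24, 8.48 and 8.34 in WT_ST, and 7.80, 7.75 and 8.22 in KO_ST. CT replicate 2 was the lowest mouse, and the CT range covered all the others except WT_ST replicate 2. Both stressed groups were 0.11 above CT, with intervals from -0.13 to 0.35 in WT_ST and from -0.11 to 0.34 in KO_ST. Without CT replicate 2 the Slc12a2 difference in WT_ST was 0.01, and in KO_ST the lowest over the 15 alternative fits was 0.02. Slc12a5 ranged from 117 to 135 FPKM and was 0.10 and 0.09 above CT, with upper interval bounds of 0.20 and 0.21. The exporter-to-importer ratio averaged 16.5 ± 2.65 in CT, 16.2 ± 2.1 in WT_ST and 16.3 ± 0.196 in KO_ST (SD, n = 3), and all stressed mice lay within the CT range of 13.9 to 19.2.

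**Figure D4:**
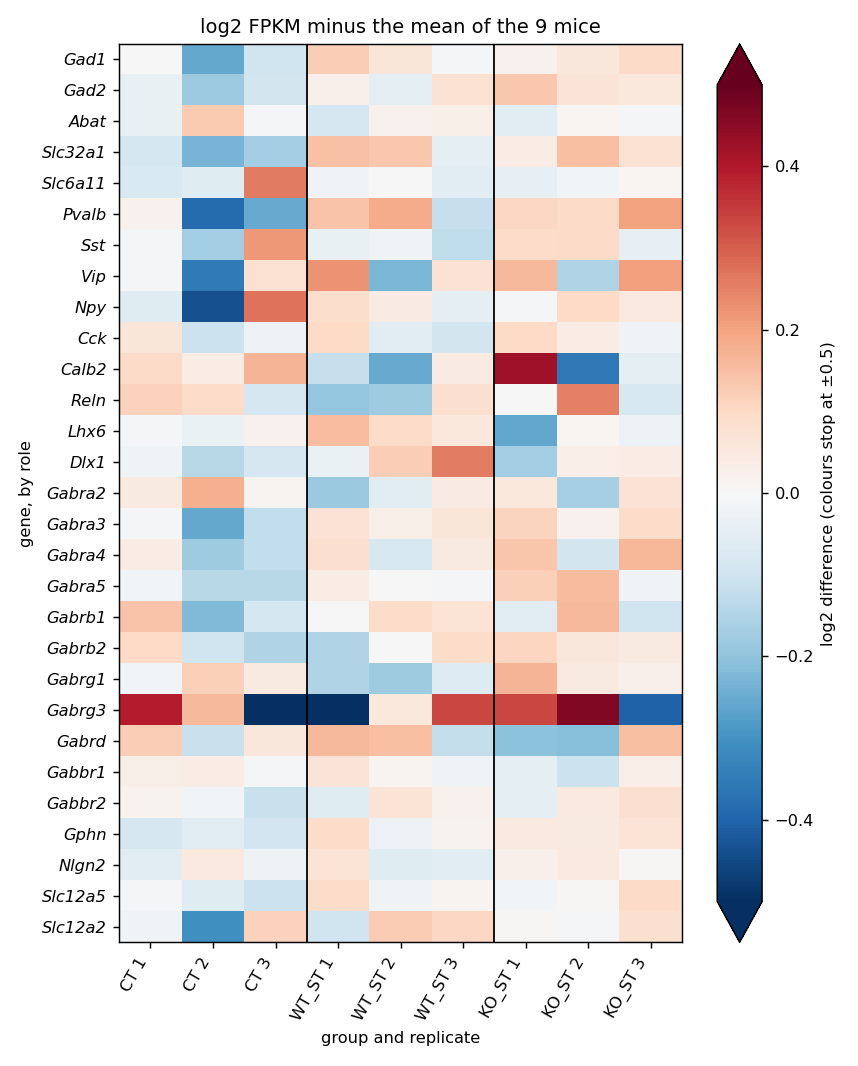
log2 FPKM of each member in each mouse minus its mean over the 9 mice, grouped by role, with red above and blue below the mean and colours stopped at a difference of 0.5. CT replicate 2 is blue for Gad1, Slc32a1, Pvalb, Vip and Npy, and Gabrg3 and Calb2 vary strongly within groups.

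Covariation between members over the 9 mice was computed for 8 pairs. Since the pairs were chosen after their values were seen, the correlations are given as a description, without a test. Gad1 and Pvalb had a Pearson r of 0.94 and a Spearman rho of 0.93. Without CT replicates 2 and 3, the mice farthest from the median of Gad1, r was 0.77, and after subtraction of the group means it was 0.88. For Gad1 and Slc32a1, r was 0.91 and rho 0.87, r without those CT mice was 0.81 and r within groups 0.76. Gad1 and Gad2, enzymes of the same step, gave an r of 0.74 but a rho of 0.35, an r of -0.11 without the same CT mice and 0.39 within groups, so their relation rests on those mice. Sst and Npy had an r of 0.79 and a rho of 0.63, and r was 0.36 without those mice but 0.91 within groups. The other 4 pairs were neighbours on a chromosome or partners in function. Slc12a5 with Slc12a2, Gabra2 with Gabra4, Gabra5 with Gabrg3 and Gabbr1 with Gabbr2 had r values of 0.05, -0.06, 0.41 and -0.10, and rho values of -0.17, 0.08, 0.43 and -0.12.

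**Figure D5:**
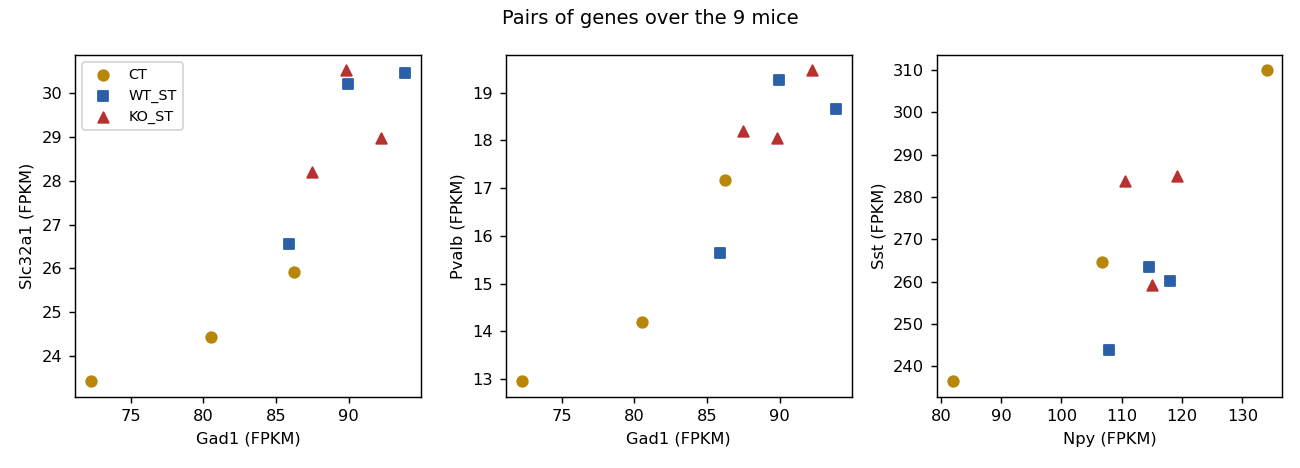
FPKM of 1 gene against another in the 9 mice, for Gad1 with Slc32a1, Gad1 with Pvalb, and Npy with Sst, with circles for CT, squares for WT_ST and triangles for KO_ST, and axes that do not start at 0. Slc32a1 and Pvalb climb with Gad1 across all groups (r of 0.91 and 0.94), while the lowest and the highest mouse for Sst and Npy are both CT.

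Other genes of the pathway were taken from a list of 33. Of 28 tested, 1 was called higher and 0 lower in WT_ST against CT (2.47% of all genes in either direction), 0 in either direction in KO_ST against CT (3.56%), and 0 higher and 1 lower in KO_ST against WT_ST (2%), with 0 to 3 reaching an unadjusted p under 0.05 in a direction. Both calls were of Kctd8, an auxiliary subunit of GABA-B receptors, at 1.59 to 2.31 FPKM in CT, 2.53 to 2.85 in WT_ST and 1.98 to 2.14 in KO_ST. WT_ST stood above both other groups without overlap. Kctd8 rose by 0.39 in WT_ST against CT (SE 0.097, limma adjusted p = 0.597) and was 0.28 lower in KO_ST than in WT_ST (SE 0.061, limma adjusted p = 0.548). Median log2 fold changes of the list were 0.03, 0.02 and 0.02 in WT_ST against CT, KO_ST against CT and KO_ST against WT_ST.

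A list of 37 other interneuron genes, 35 of them tested, gave 2 higher and 1 lower call in WT_ST against CT (2.47% of all genes called in either direction), 2 higher in KO_ST against CT (3.56%) and 2 higher in KO_ST against WT_ST (2%). The medians of the list were 0.03, 0.06 and 0.01 on the log2 scale. Syt2, a synaptotagmin of fast release from parvalbumin terminals, was at 0.776 to 2.23 FPKM in CT, 2.504 to 3.90 in WT_ST and 2.68 to 3.08 in KO_ST, with CT replicate 2 the lowest. It rose in both stressed groups, by 0.69 in WT_ST (limma adjusted p = 0.634) and 0.59 in KO_ST (limma adjusted p = 0.501). Dlx6, a homeodomain factor of the same family as Dlx1, rose in WT_ST by 0.27 (limma adjusted p = 0.634). Cort, a peptide of cortical interneurons, fell in WT_ST by 0.27 against CT (limma adjusted p = 0.634) and was 0.33 higher in KO_ST than in WT_ST (limma adjusted p = 0.801). Tac1, a tachykinin precursor that striatal neurons also make, was 0.44 higher in KO_ST than in CT (limma adjusted p = 0.326) and 0.30 higher than in WT_ST (limma adjusted p = 0.673).

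Markers of GABA neurons outside the cortex gave most calls for the striatum. Over 14 markers of striatal medium spiny neurons, 13 of them tested, the summed FPKM was 106 to 127 in CT, 119 to 151 in WT_ST and 113 to 135 in KO_ST. Calls were 3 higher and 0 lower in WT_ST against CT (2.47% of all genes), 2 higher and 0 lower in KO_ST against CT (3.56%), and 1 higher and 2 lower in KO_ST against WT_ST (2%). Tac1 was 1 of the 2 higher in KO_ST against CT and the 1 higher in KO_ST against WT_ST. It was also counted among the other interneuron genes above. No marker was at 0 reads in all mice, but Drd1, Drd2 and Adora2a, the defining receptors, were low at 2.70 to 4.70, 0.640 to 2.28 and 0.627 to 2.07 FPKM. Drd2 and Adora2a were among the markers that rose in WT_ST against CT, by 0.59 and 0.45 on the log2 scale (limma adjusted p = 0.634 and 0.635), and Drd2 also rose in KO_ST against CT, by 0.32 (limma adjusted p = 0.499). The median log2 fold change of the list was 0.24 in WT_ST against CT, 0.07 in KO_ST against CT and -0.18 in KO_ST against WT_ST. The sum was lowest in CT replicate 2, the lowest mouse for Gad1 and Slc32a1, and highest in WT_ST replicates 2 and 3. In WT_ST replicate 1, highest for Gad1, it was 119, and in KO_ST replicate 2, highest for Slc32a1, it was 113. The part of these cells in the values of Gad1, Gad2 and Slc32a1, which they also express, was not tested. Over 10 markers of the olfactory bulb and migrating neuroblasts, 8 of them tested, the sums were 22.3 to 28.3, 22.03 to 28.2 and 23.0 to 26.7 in CT, WT_ST and KO_ST, with 1 called lower in WT_ST against CT and 0 in the other comparisons. Over 11 markers of the septum and hypothalamus, 4 of them tested, they were 8.43 to 9.51, 8.47 to 9.51 and 9.20 to 11.6, with 0 called by limma and 1 higher at an unadjusted p under 0.05 in KO_ST against CT.

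Of 8 microglial markers, 7 fell in WT_ST against CT and 7 in KO_ST against CT, and the summed FPKM was 152 to 193 in CT, 121 to 135 in WT_ST and 69.7 to 141 in KO_ST. Among them Cx3cr1, the fractalkine receptor, fell by 0.48 in WT_ST and 0.97 in KO_ST (limma adjusted p = 0.412 and 0.470). Of 8 astrocyte markers, 0 were called higher and 2 lower in WT_ST, and their sums were 559 to 605, 507 to 529 and 504 to 601 in CT, WT_ST and KO_ST. The highest astrocyte sums were those of CT replicate 3 (605) and KO_ST replicate 3 (601), in which Slc6a11 was at 46.2 and 38.9 FPKM. Of 8 endothelial and mural markers 2 fell in each comparison with CT, and the sums were 92.6 to 98.5, 75.9 to 90.1 and 67.4 to 97.8. Oligodendrocyte markers summed to 470 to 888, 497 to 785 and 532 to 699, with 0 of 8 called, and precursor markers to 48.8 to 66.6, 44.3 to 51.6 and 43.0 to 50.3, with 1 of 5 called lower in KO_ST against CT. No marker of these lists was at 0 reads in all mice, and the part of these marker differences in the members' differences was not tested.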

How the data were processed

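RNA of the dissected mPFC was sequenced by the authors as paired-end reads from a stranded mRNA kit, with 1 library per mouse. The submitters' processing notes name HISAT2 2.1.0, Bowtie2 2.3.4.1, StringTie 1.3.4d and the build mm10. The tables deposited by the authors give unnormalized read counts and FPKM values per gene. The strand setting of the counting is not given in the sources used here.

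Mice were grouped by the genotype and treatment in the labels. FPKM was taken as log2(FPKM + 1) and quantile normalized over the 9 mice and all 24532 genes. Each pair of groups was tested with limma 3.58.1 (R 4.3.3, mean-variance trend), in place of the study's test of each gene by itself, over genes with a mean of at least 30 reads. The fits were tested on simulated data. Values in the text without another unit are FPKM, and intervals cover 95%. With 3 mice against 3, an exact permutation test of 1 gene cannot go below p = 0.1.

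Members and lists were chosen with earlier results of these data known. Values are given mouse by mouse for members called in any comparison and for the member of each role with the largest absolute log2 fold change. Gad1, Gabra5, Gabrg1, Lhx6 and Sst were added after their values were seen. From the lists of other GABA pathway and interneuron genes only called genes were named, and of marker lists at most the first 3. Insyn1 and Insyn2a of the pathway list were not found by symbol.

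Replicate numbers did not pair the mice. The mean correlation of deviations from the group means was -0.0101 for same-numbered mice (9 pairs, -0.259 to 0.234) and 0.00494 for the rest (18 pairs).

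Alternatives were other pseudocounts (0.1 and 0.5), no filter or a mean FPKM of at least 1, no quantile normalization, all mice in 1 fit, edgeR 4.0.16 and DESeq2 1.42.0 on the counts, a replicate block, and leaving out each mouse. Correlations between members were computed with scipy 1.17.1. Gene positions and promoters come from RefSeq (GRCm38.p6), and GENCODE exons were used to end the printed windows. Plots used matplotlib 3.10.9 and Python 3.11.15. The co-expression network was not analysed here.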

Additional observations from a re-analysis of the deposited data

How the results depend on the processing

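Over the 15 alternatives of each comparison, members above 0 numbered 18 to 21 in WT_ST against CT. They numbered 21 to 23 in KO_ST against CT and 19 to 23 in KO_ST against WT_ST. No called value was opposite in sign to that of the fits described above. In WT_ST against CT the members called went from 0 to 1, Pvalb, with all 9 mice in 1 fit, with DESeq2 and with the replicate block, and were 0 to 2 when 1 mouse was left out (Pvalb and Slc32a1 without CT replicate 1 or without WT_ST replicate 3). In KO_ST against CT they went from 1 to 2 with edgeR and DESeq2, which added Slc32a1, and were 0 to 3 when 1 mouse was left out. The single called gene that lost its call was Pvalb, without CT replicate 2, and without CT replicate 3 Npy was called as well. The log2 fold change of Npy in this comparison ran from -0.05 to 0.27 over the alternatives, so its sign was not stable. In KO_ST against WT_ST 0 members were called under every alternative. The replicate block changed no other member's call. Calls over all tested genes went from 355 to 544 with a pseudocount of 0.1, 535 with edgeR and 552 with DESeq2 in WT_ST against CT, with 277 to 542 when 1 mouse was left out. In KO_ST against CT they went from 512 to 720 with a pseudocount of 0.1, 665 with edgeR and 738 with DESeq2. When 1 mouse was left out they were 410 to 734 there. In KO_ST against WT_ST they went from 287 to 445 with a pseudocount of 0.1, with 245 to 477 when 1 mouse was left out. The share of higher genes among these calls was 46.8% in WT_ST against CT but 34.1% without quantile normalization, 33.1% with edgeR and 34.2% with DESeq2, and 43.2% in KO_ST against CT but 28.5% without quantile normalization. When 1 mouse was left out it was 40.0% to 59.4% and 36.4% to 53.7%, the highest values being without CT replicate 3. The causes of these shifts were not tested. The lowest member in reads was Gabrg3, with a mean of 178 and a counting error of 7.49%.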

Other observations

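Gabra3 held 27.4% to 29.2% of the summed FPKM of the 9 GABA-A subunits in CT and 30.1% to 31.0% in the stressed mice, and Gabra2 held 6.74% to 8.39% in CT and 5.87% to 6.80% in the stressed mice, with overlap only for Gabra2. Gabrb2 followed with 15.3% to 17.9% over all mice and Gabra5 with 13.4% to 15.9%. Gabrd held 14.1% to 15.4% in CT, 12.5% to 15.3% in WT_ST and 11.5% to 14.6% in KO_ST. Gabrg3, at 0.552% to 1.3%, had the smallest share in each mouse. These shares are descriptions without a test.

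Single mice stood at the ends of the members' ranges unevenly. CT replicate 2 was the lowest of the 9 mice for 12 members and WT_ST replicate 1 the highest for 8, beside 17.2% and 13.3% of tested genes. WT_ST replicate 3 and KO_ST replicate 3 were the lowest for 0 members.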
